A study of Mus musculus with 2 samples.

Results

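The genes described here are the protein tyrosine phosphatases whose symbols begin with Ptpn, the mostly cytosolic non-receptor enzymes, or with Ptpr, the membrane-spanning receptor-type enzymes. They were chosen by symbol alone among the probe sets that the array annotation assigns to exactly 1 gene, which gave 87 of 34945 probe sets and 35 of 18193 genes, 16 Ptpn and 19 Ptpr. Of these 35, Ptprcap is not a phosphatase but a membrane protein associated with CD45, and it is kept because its symbol meets the rule. A symbol alone does not show that each of the other members is an active enzyme. The samples were macrophages grown from the bone marrow of C57BL6 mice in medium with serum and M-CSF, the growth factor that turns marrow precursors into macrophages. The LPS sample was treated with lipopolysaccharide, the glycolipid that coats Gram-negative bacteria and is bound by Toll-like receptor 4, and the control sample was not. The labels give no dose and no duration for the LPS, and no number of animals. Each sample was read on 1 Affymetrix whole-genome mouse array, so no value has a replicate, no difference could be tested, and the small number of arrays limits how precise any statement can be.

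Tyrosine phosphatases remove phosphate from tyrosines that kinases have modified, and many of them share a catalytic domain in which a cysteine attacks the phosphate. In macrophages the best known are CD45 and CD148, which open Src-family kinases by removing an inhibitory phosphate, and SHP-1, which inhibitory receptors bring to the membrane to quench signals. PTP1B and TC-PTP act on Janus kinases and STAT proteins and so limit cytokine and growth factor signalling.

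Signals are MAS5 intensities in the authors' units. The floor used here was each array's own median signal, 26.7 on the LPS array and 35.1 on the control array. A gene was called measured if the brightest of its probe sets came up to the floor on either array. Signals below the floor were raised to it before taking the log2 ratio (LPS over control), so such a fold is a lower bound, marked by "at least". A gene is called higher or lower where it differed by 2-fold or more. Of all genes, 11722 were measured and their median log2 ratio was -0.42. This offset was not equal for all genes, so -0.42 is not a correction for each ratio below. Loess, a scaling that follows signal level, moved bright Ptpn6 from 0.24 to 0.27 and dimmer Ptpn23 from 0.32 to 1.08. The array's hybridization controls had a median of -0.05 and its poly-A controls -0.29. All 9 macrophage markers reached both floors, with summed signals of 54081 on the LPS array and 49846 on the control array. The higher sum on the LPS array rests on Cd14, at 10273 on the LPS array and 3965 on the control array, and Fcgr1, at 6107 on the LPS array and 1519 on the control array, and the other 7 summed to 37701 on the LPS array and 44361 on the control array. Lymphoid and other markers were dim: 2 of 7 T cell markers reached the floor on each array (summed signals 135 with LPS and 211 without) and 3 of 6 B cell markers did (156 with LPS and 307 without), while Cd3e, Cd3d, Cd3g, Cd79a and Ms4a1 were under the floor on both. Of 5 endothelial markers, 3 reached the floor on the LPS array and 2 on the control array (368 with LPS and 880 without), and 2 of 6 neutrophil markers did on each (313 with LPS and 539 without). The endothelial markers did not move together: Vwf had 91.7 on the LPS array and 769 on the control array, Kdr had 225 on the LPS array and 63.8 on the control array, and the sum without Vwf was 277 on the LPS array and 110.5 on the control array. Cd14, Fcgr1 and Vwf were singled out after their values were seen. Summed NK cell, mast cell, stromal and erythroid markers were at or under 116 on each array. The part of such cells in the results was not tested, and in bulk RNA fewer cells of a type and less RNA per cell cannot be told apart.

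Of the 35 phosphatase genes, 25 were measured, 19 of them on both arrays, 4 on the control array alone and 2 on the LPS array alone. Of these 25, 3 were higher with LPS, namely Ptprj, Ptpn1 and Ptpn2, and 6 were lower, namely Ptpn22, Ptpn4, Ptpn21, Ptprs, Ptpra and Ptpn18. The remaining 16 did not reach 2-fold, but 5 of these, Ptpn3, Ptpn13, Ptprm, Ptprn2 and Ptpru, were under the floor on 1 array and so have bounds alone. With the lower floor (35th percentile) Ptprm was at -1.74 and Ptpn13 at -1.14, which makes 8 lower genes. The higher and the lower genes are 12.0% and 24.0% of the measured members. Of all measured genes 8.22% were higher and 26.2% lower, so as deposited the family's shares were close to the background. The median log2 ratio of the members was -0.41, against -0.42 over all measured genes. That member median is the value of Ptpn13, a bound set by the LPS floor, so its closeness to -0.42 depends on the floor. It was -0.11 over members that reached both floors and 0.20 with a floor at the 65th percentile. After centring all ratios on their median, the same 3 genes were higher, and Ptpn22 and Ptpn4 alone were lower. These are 12% and 8% of the measured members, with backgrounds of 13.1% and 15.3%. After loess, Ptpn9 and Ptpn23 joined the higher ones to make 5, and 4 were lower. These are 20% and 16% of the measured members, with backgrounds of 13.8% and 12.8%. The 15 measured Ptpn genes had a median of -0.03 (0.40 after centring) and the 10 measured Ptpr genes -0.67 (-0.25 after centring). The Ptpn median is the bound of Ptpn3, and the Ptpr median rests in part on the bound of Ptprm.

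**Figure D1:**
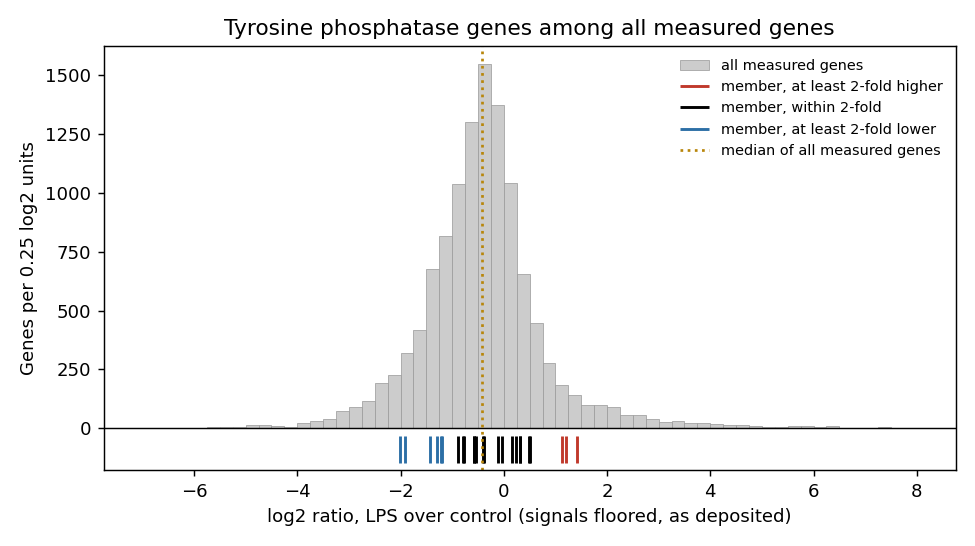
Histogram of the log2 ratio (LPS over control) of all 11722 measured genes (vertical axis, genes per 0.25 log2 units), with a tick below it for each of the 25 measured Ptpn and Ptpr genes. The ticks lie between -2.02 and 1.43, inside the bulk of all genes, and the dotted line marks the median of all measured genes at -0.42.

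PTP1B and TC-PTP, the non-receptor enzymes that act on Janus kinases, were both higher on the LPS array. Ptpn1, which encodes PTP1B, an enzyme anchored in the endoplasmic reticulum that also acts on the insulin receptor, had a signal of 4169 on the LPS array and 1814 on the control array. That is 2.30-fold higher, a log2 ratio of 1.20 that lay between 1.06 and 1.62 under 5 scalings of the arrays. The probe sets did not give like ratios, since the other probe set of Ptpn1 had 1274 on the LPS array and 1114 on the control array, a log2 ratio of 0.19. Ptpn2, which encodes TC-PTP, an enzyme that acts on Janus kinases, had 1565 on the LPS array and 711.6 on the control array, 2.20-fold higher. Its other well-lit probe set had 963 on the LPS array and 394 on the control array, 2.44-fold higher. The remaining pair of Ptpn2 probe sets had 84.5 and 56.9 on the LPS array and lay under the floor on the control array, so the folds are at least 2.41 and 1.62. All 4 Ptpn2 ratios were thus positive.

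The promoter of Ptpn1 is shown because its brightest probe set had the second highest ratio of the family as deposited. Ptpn2 lay above Ptpn1 after quantile normalization (1.19 against 1.06), after loess (1.34 against 1.25), when probe sets were summarised by their median (1.20 against 0.70) and with plain probe sets alone (1.27 against 0.19). The window runs from 250 bases before to 50 bases after the annotated start in RefSeq (GRCm38.p6), here and below, in the gene's orientation, and capitals mark matches to any of 6 searched motifs. These were GGGNNTTCC (NF-kB type), GAAANNGAA (interferon response element type), TTCCNGGAA (STAT type), TGANTCA (AP-1 type), TTGCNCAA (C/EBP type) and GAGGAA (Ets type), on both strands, of which the NF-kB and STAT types can overlap.
Ptpn1, chr2:167932077-167932376, plus strand: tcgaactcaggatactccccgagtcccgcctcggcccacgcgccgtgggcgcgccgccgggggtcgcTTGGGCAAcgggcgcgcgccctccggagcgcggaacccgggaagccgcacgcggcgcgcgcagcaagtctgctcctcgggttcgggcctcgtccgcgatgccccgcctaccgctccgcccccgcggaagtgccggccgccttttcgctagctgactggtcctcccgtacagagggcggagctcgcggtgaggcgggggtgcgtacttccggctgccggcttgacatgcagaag
The capitals mark the C/EBP-type match read on the opposite strand, TTGGGCAA, whose first base lies at -183 from the start. Of all 32851 promoter windows 2.94% held a C/EBP-type match, and of the 42 windows of 29 member genes 1 did. A match is a description of the sequence, not evidence of binding.

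The SH2-domain phosphatases, which dock on phosphorylated receptors, differed little between the arrays. Ptpn6, which encodes SHP-1, the inhibitory phosphatase of blood cells, had 3410 on the LPS array and 2889 on the control array, and its other probe set had 1231 on the LPS array and 910 on the control array. The log2 ratios were 0.24 and 0.44. Ptpn11, which encodes SHP-2, a widely expressed enzyme that promotes Ras and MAP kinase signalling, had 616 on the LPS array and 551 on the control array, a log2 ratio of 0.16. A dimmer Ptpn11 probe set was at 0.67, and another, under the floor on the LPS array at 17.9 and at 44.7 on the control array, pointed down at -0.74.

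The PEST-type phosphatases, named for a proline-rich tail, were divided. Ptpn22, a phosphatase of blood cells that binds the kinase Csk and acts on Src-family kinases, had 171 on the LPS array and 691 on the control array. This is 4.04-fold lower by its only probe set, and 3.02-fold lower after median centring. It was the lowest ratio among the members that reached both floors, and members under the LPS floor have bounds alone and cannot be ranked against it. Ptpn18, another member of this type, had 1155 on the LPS array and 2658 on the control array, 2.30-fold lower. Its dim probe set had 8.88 on the LPS array, under the floor, and 49.3 on the control array, at least 1.85-fold lower. Ptpn12, which encodes PTP-PEST, a regulator of cell adhesion and the cytoskeleton, differed from these relatives in having 4 probe sets that were all between 0.49 and 0.56. Its brightest probe set had 2311 on the LPS array and 1633 on the control array, 1.42-fold higher, which is under the 2-fold size used here.

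Ptpn22 has more than 1 annotated start, and both windows are shown because the gene had the lowest ratio among members that reached both floors.
Ptpn22, chr3:103859545-103859844, plus strand: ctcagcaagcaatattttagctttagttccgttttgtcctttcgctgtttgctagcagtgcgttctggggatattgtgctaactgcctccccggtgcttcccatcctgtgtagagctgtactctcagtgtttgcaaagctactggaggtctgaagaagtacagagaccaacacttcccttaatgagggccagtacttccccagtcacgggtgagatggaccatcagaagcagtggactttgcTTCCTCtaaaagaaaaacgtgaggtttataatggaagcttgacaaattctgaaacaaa
Ptpn22, chr3:103860027-103860326, plus strand: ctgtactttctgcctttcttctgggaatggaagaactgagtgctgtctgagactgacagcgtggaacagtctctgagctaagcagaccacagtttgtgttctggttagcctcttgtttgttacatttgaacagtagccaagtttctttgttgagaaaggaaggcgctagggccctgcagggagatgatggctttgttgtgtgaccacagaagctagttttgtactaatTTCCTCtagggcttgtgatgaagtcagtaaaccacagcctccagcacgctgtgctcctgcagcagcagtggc
The capitals in each mark an Ets-type match read on the opposite strand, TTCCTC, first base at -8 in the upstream window and at -22 in the other. Ets-type matches were common, in 28.3% of all windows and in 19 of the 42 member windows (45.2%), so their presence does not set these apart. Neither Ptpn22 window held a match to the other searched motifs.

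FERM-domain phosphatases, which sit at the junction of membrane and cytoskeleton, were at or under 71.6 on both arrays except Ptpn4. Ptpn4, which also carries a PDZ domain, had 55.3 on the LPS array and 210 on the control array, 3.79-fold lower. Its other probe set was near the floor, at 40.5 on the LPS array and at 34.7, under the floor, on the control array, so the lower ratio rests on 1 probe set. Ptpn21 had 22.1 on the LPS array, under the floor, and 71.5 on the control array, at least 2.68-fold lower. Its other measured probe set had 2.95 on the LPS array, also under the floor, and 52.2 on the control array, at least 1.96-fold lower. Ptpn14 had 49.1 on the LPS array and 71.6 on the control array, with a log2 ratio of -0.54, positive after loess and after quantile normalization, and its other measured probe set was at 0.01. Ptpn13 had 16.04 on the LPS array and 35.4 on the control array. Ptpn3 had 34.5 on the LPS array and 24.0 on the control array, which is above the LPS floor and under the control floor, and neither is given a fold.

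Of the other non-receptor members, none reached 2-fold as deposited. Ptpn9, an enzyme of secretory vesicles, had 212 on the LPS array and 171 on the control array. Ptpn23, which encodes a protein of endosomal sorting, had 147 on the LPS array and 118 on the control array. Both ratios, 0.31 and 0.32, reached 2-fold after loess, at 1.03 and 1.08. Ptpn5, the MAP kinase phosphatase known from striatal neurons, was near the floor at 35.2 on the LPS array and 37.9 on the control array. Its log2 ratio of -0.11 turns positive under 4 of the 5 scalings. Ptpn20 was under the floor on both arrays.

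Among receptor-type enzymes, CD148 differed between the arrays by more than CD45 did. Ptprj, which encodes CD148, a receptor phosphatase with fibronectin repeats that acts with CD45 on Src-family kinases in myeloid cells, had 1961 on the LPS array and 729 on the control array, 2.69-fold higher. It was the highest ratio of the family, and all 4 probe sets of Ptprj were past 2-fold. The other probe sets had 648, 455 and 160 on the LPS array, against 104, 88.0 and 70.4 on the control array. These were 6.21-fold, 5.17-fold and 2.28-fold higher, so the size of the Ptprj difference depends on the probe set chosen and the direction does not. Ptprc, which encodes CD45, the abundant receptor phosphatase of all nucleated blood cells, had 6609 on the LPS array and 4716 on the control array. Its log2 ratio of 0.49 was matched by 0.46 for its other probe set, which had 169 on the LPS array and 122 on the control array.

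Both annotated start windows of Ptprj are shown because this gene had the highest ratio and probe sets that agree in direction.
Ptprj, chr2:90479125-90479424, minus strand: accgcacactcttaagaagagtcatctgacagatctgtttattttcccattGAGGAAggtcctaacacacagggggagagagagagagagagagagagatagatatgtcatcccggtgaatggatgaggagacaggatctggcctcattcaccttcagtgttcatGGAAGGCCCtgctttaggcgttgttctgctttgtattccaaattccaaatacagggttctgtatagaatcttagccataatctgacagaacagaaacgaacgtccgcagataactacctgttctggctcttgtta
Ptprj, chr2:90580546-90580845, minus strand: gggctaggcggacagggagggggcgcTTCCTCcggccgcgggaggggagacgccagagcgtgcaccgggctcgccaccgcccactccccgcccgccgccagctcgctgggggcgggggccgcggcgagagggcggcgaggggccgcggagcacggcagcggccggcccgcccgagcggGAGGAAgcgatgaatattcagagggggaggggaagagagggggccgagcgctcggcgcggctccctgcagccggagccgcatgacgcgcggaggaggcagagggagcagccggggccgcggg
In the first window the capitals mark an Ets-type match, GAGGAA, from -199 and an NF-kB-type match read on the opposite strand, GGAAGGCCC, from -85. In the other window they mark Ets-type matches alone, from -224 and from -72. NF-kB-type matches were in 5.82% of all windows and in 6 of the 42 member windows, those of Ptpn3, Ptpre, Ptprj, Ptprr and Ptprs. The Ptprr windows with this match overlap and hold the same site, which is thus counted more than once. Of the 5 genes with such a match Ptprj was higher and Ptprs lower. Ptpre did not reach 2-fold, Ptpn3 has a bound alone, and Ptprr was under the floor on both arrays. No member window held a STAT-type match, which 1.15% of all windows did. An interferon-type match was in 1 member window, that of Ptpn5, and in 8.56% of all, and an AP-1-type match was in 1 member window, that of Ptpre, and in 7.81% of all. The windows were unlike each other in base composition, with 79.3% G and C in the Ptprj window that holds Ets-type matches alone and 74.0% in Ptpn1, but 45% in the other Ptprj window and 46.0% and 48.7% in Ptpn22, so the windows do not divide by the direction of the gene. The median was 63.5% over the member windows and 52.7% over all windows.

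**Figure D2:**
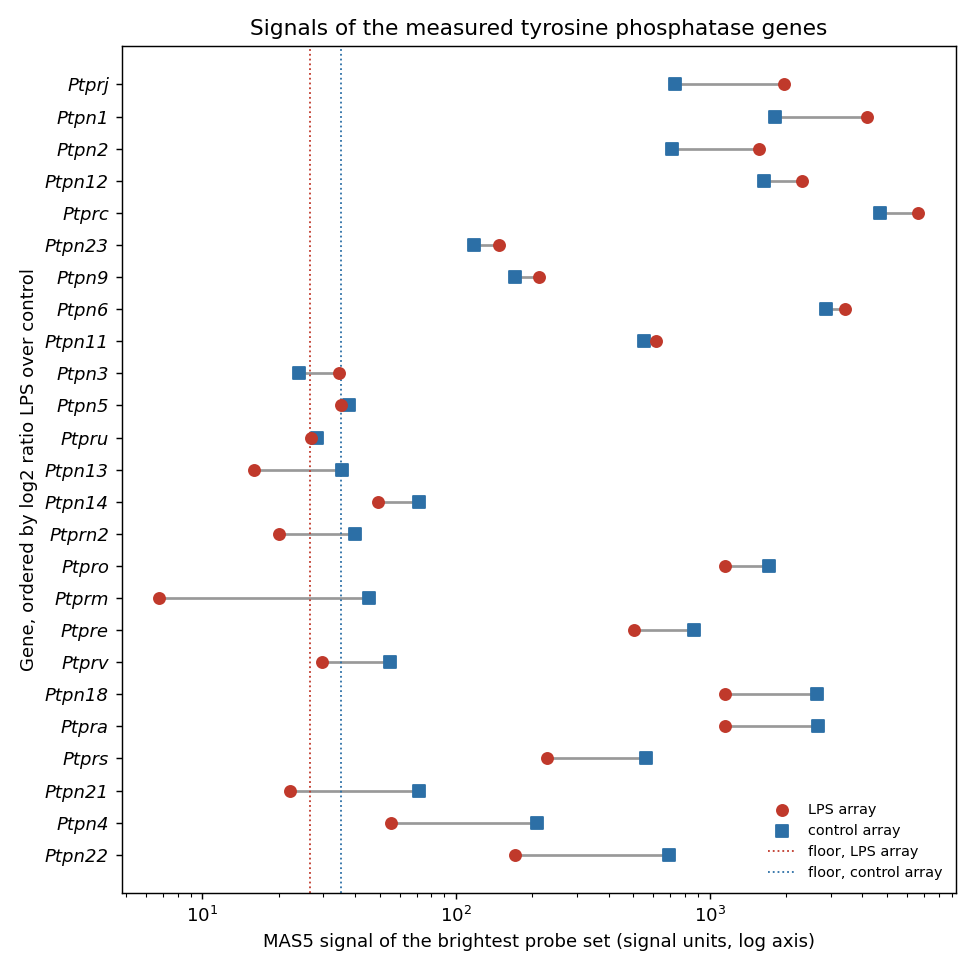
MAS5 signal of the brightest probe set (horizontal log axis, signal units) on the LPS array (circles) and the control array (squares) for the 25 measured genes, ordered from the highest log2 ratio (top) to the lowest, with each array's floor as a dotted line. Ptprj, Ptpn1 and Ptpn2 lie right of their control squares by over 2-fold, and Ptpn22 and Ptpn4 lie farthest left of theirs among genes that reached both floors.

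The other fibronectin-repeat receptors did not share the Ptprj difference. Ptpro, known from kidney podocytes and also made in macrophages and osteoclasts, had 1149 on the LPS array and 1717 on the control array. Its other probe set had 499 on the LPS array and 751 on the control array, and the log2 ratios were -0.58 and -0.59. Ptprv had 29.6 on the LPS array and 54.8 on the control array, and Ptprb, an endothelial enzyme, was under the floor on both. The short receptors Ptpra and Ptpre each had negative ratios by both of their probe sets. Ptpra, an activator of Src-family kinases, had 1150 on the LPS array and 2666 on the control array, 2.32-fold lower, and its dimmer probe set had 40.2 on the LPS array and 131 on the control array, 3.24-fold lower. Ptpre, a close relative found in blood cells, had 502 on the LPS array and 866 on the control array, and its other probe set had 261 on the LPS array and 480 on the control array. Its log2 ratios of -0.79 and -0.88 were under the 2-fold size.

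Of the LAR-type receptors, which bind sulphated proteoglycans, only Ptprs was measured. It had 229 on the LPS array and 563 on the control array, 2.46-fold lower, while its other measured probe set, at 56.1 on the LPS array and 71.4 on the control array, gave a log2 ratio of -0.35. Its relatives Ptprd (7 probe sets) and Ptprf (3 probe sets) were under the floor on both arrays. Among MAM-domain receptors, which bind their like on neighbouring cells, Ptprm had 6.78 on the LPS array, under the floor, and 45.3 on the control array, at least 1.70-fold lower. Ptpru had 26.7 on the LPS array and 28.3 on the control array, near the floors, and Ptprk was under the floor in all 7 probe sets. Ptprn2, a protein of secretory granules, had 20.0 on the LPS array, under the floor, and 39.8 on the control array, at least 1.49-fold lower. Ptprn, Ptprr, Ptprg, Ptprz1 and Ptprcap were also under the floor on both arrays, which brings the members with no fold from lack of signal to 10. Several of these are best known from other cells, such as Ptprz1 from glia, Ptprn from endocrine cells and neurons, and Ptprcap from lymphocytes.

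Over single probe sets, 47 of 87 were measured, of which 8 were higher (17.0%) and 7 lower (14.9%), with backgrounds of 8.27% and 26.1%. Ptprj and Ptpn2 gave 7 of the 8 higher ones, so probe sets of a gene are not separate evidence. In 12 of 15 members with several measured probe sets every one had the same sign as deposited, and the exceptions were Ptpn11, Ptpn14 and Ptpn4. Some of these ratios are bounds set by a floor, and the count was not repeated after scaling. The dimmer Ptprs probe set, at -0.35, lay above the median of all measured genes at -0.42, and its brightest lay below it. For the 12 members with several probe sets measured on both arrays, the median SD between probe sets was 0.24 log2 units, against 0.28 over 4494 genes. This spread is between probe sets of a gene within 2 arrays, and its cause was not tested. It says nothing about differences between cultures.

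**Figure D3:**
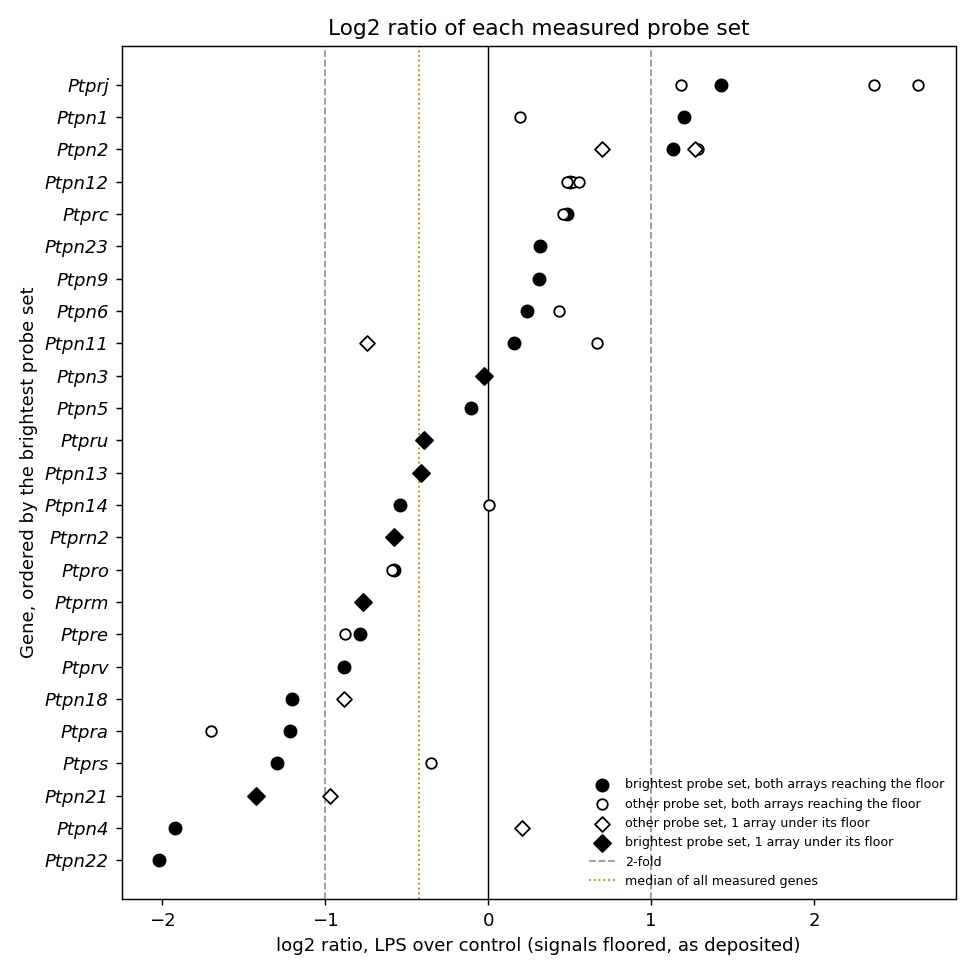
Log2 ratio (LPS over control, horizontal axis) of every measured probe set of the 25 genes, with filled symbols for the brightest probe set, open symbols for the others, circles where both arrays reached their floors and diamonds where 1 was under it. All 4 Ptprj circles lie right of the 2-fold line, the Ptpn12 circles overlap between 0.49 and 0.56, and the Ptpn4 symbols lie on both sides of 0.

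Of the 9 members past 2-fold as deposited, 5 were past it under all 5 scalings of the arrays. Ptprj lay between 1.46 and 1.85, Ptpn1 between 1.06 and 1.62 and Ptpn2 between 1.18 and 1.56 over the 5 scalings, all past 2-fold. Ptpn22 lay between -1.97 and -1.44 and Ptpn4 between -1.87 and -1.15. The others did not keep their size in every scaling: after median centring Ptpra was at -0.79, Ptpn18 at -0.78, Ptprs at -0.87 and Ptpn21 at -0.999, just inside 2-fold. The sign of 5 dim members, Ptpn3, Ptpn5, Ptpn13, Ptpn14 and Ptpru, changed under at least 1 scaling. With the floor used here no direction is therefore given for them.

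**Figure D4:**
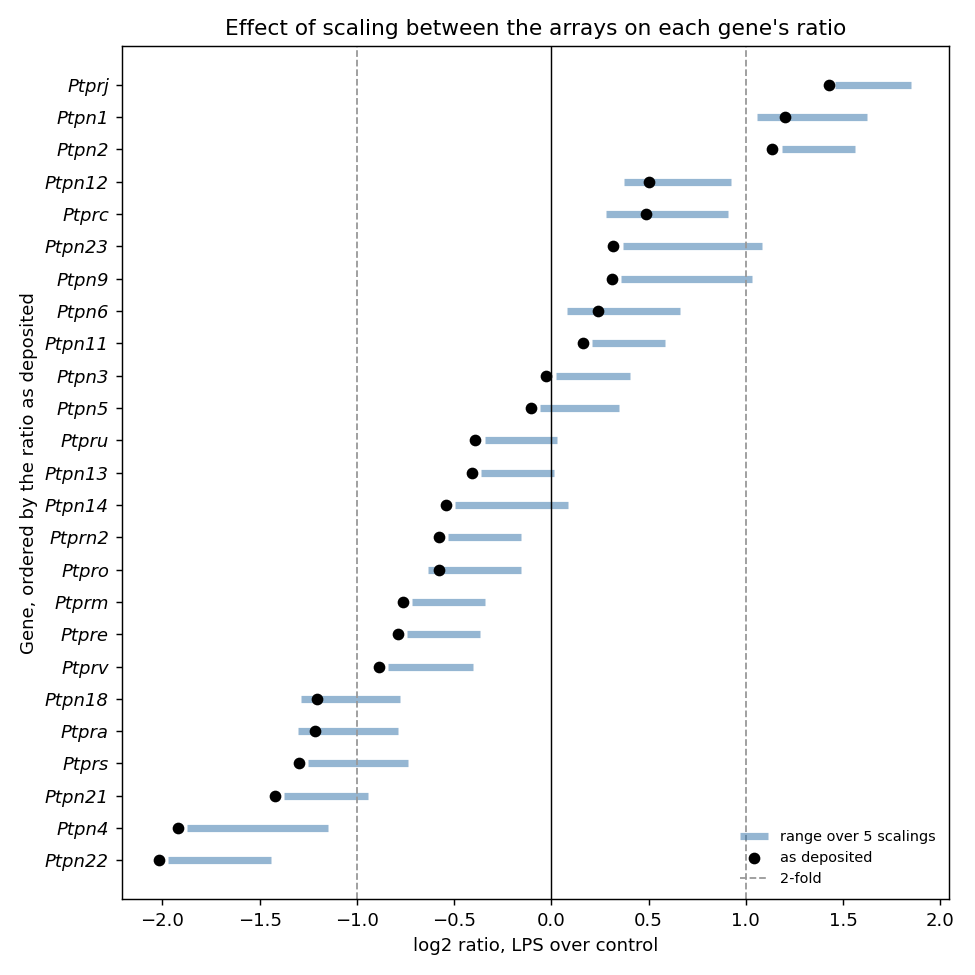
Log2 ratio (LPS over control) of the brightest probe set of the 25 genes as deposited (points) and its range over 5 scalings of the arrays (bars). The bars of Ptprj, Ptpn1 and Ptpn2 stay right of the 2-fold line at 1, and those of Ptpn22 and Ptpn4 stay left of the line at -1.

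Receptors and kinases that work with these phosphatases were listed as well, and each count is to be read against all measured genes, of which 8.22% were higher and 26.2% lower (13.1% and 15.3% after median centring). Many, though not all, receptors with inhibitory ITIM motifs recruit mainly SHP-1 or SHP-2. Of 16 measured receptors with such motifs, 5 were higher and 5 lower (6 and 2 after median centring), with a median of 0.23. The lower share of 31.25% is near the 26.2% of all measured genes, and the higher share, also 31.25%, stands beside 8.22%. Cd300a had 309 on the LPS array and 2481 on the control array, 8.02-fold lower, and Cd300lf was 4.72-fold lower. Pilra had 755 on the LPS array and 124 on the control array, 6.07-fold higher. Fcgr2b, the inhibitory Fc receptor, had 8671 on the LPS array and 2678 on the control array, 3.24-fold higher. Some docking adaptors link SHP-2 or Csk to receptors. Of 11 measured adaptors in that list, 0 were higher and 4 lower (also 0 and 4 after centring), with a median of -0.82. The lower share of 36.4% rests on 4 genes and stands beside 26.2% over all measured genes, or 15.3% after centring. The SHP-2 adaptor Gab3 had 18.0 on the LPS array, under the floor, and 226 on the control array, at least 8.48-fold lower. Gab1 had 43.0 on the LPS array and 230 on the control array, 5.36-fold lower, but its 3 probe sets ranged from -2.70 to -0.60. The other lower adaptors were Sh2b3 (3.51-fold) and Dok2 (2.72-fold), and Grb2 was at 0.37 with its other probe set at -0.43.

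The kinases on which these enzymes act included higher and lower genes. Of 10 measured Src-family, Csk, Syk and Tec kinases, 3 were higher and 2 lower (4 and 2 after centring), with a median of -0.11. The backgrounds were 8.22% higher and 26.2% lower over all measured genes, or 13.1% and 15.3% after centring, so the lower share, 2 of 10 in both, lay under its background as deposited and above it after centring. Src had 324 on the LPS array and 18.3, under the floor, on the control array, at least 9.23-fold higher. Syk, which signals from Fc receptors and integrins, was 2.65-fold higher by its brightest probe set, with its 4 probe sets from 0.33 to 1.40. Tec had 116 on the LPS array and 1092 on the control array, 9.40-fold lower, and the Csk-related kinase gene Matk was 2.86-fold lower, with its other probe set at -0.71. Of 10 measured Janus kinases and STAT factors, 4 were higher and 1 lower (7 and 0 after centring), with a median of 0.86. These are 40.0% and 10.0%, beside the same 8.22% and 26.2%, or 13.1% and 15.3% after centring. Jak2, a substrate of PTP1B, had 4638 on the LPS array and 341 on the control array, 13.6-fold higher. Stat5a was 5.32-fold, Stat2 4.82-fold and Stat3 3.91-fold higher, the last with 4 probe sets from 0.82, under 2-fold, to 2.12, while Stat6, which mediates interleukin-4 signals, was 2.45-fold lower. All these partner genes kept their sign under the 5 scalings, and no test links any list to the phosphatases.

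**Figure D5:**
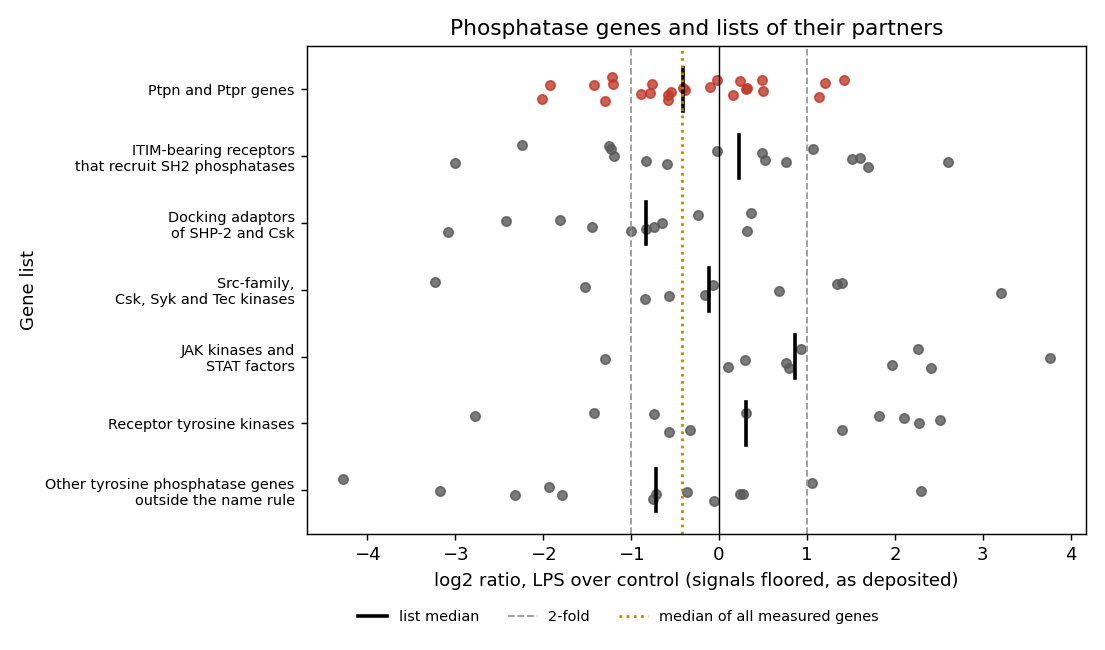
Log2 ratio (LPS over control, horizontal axis) of each measured gene of the Ptpn and Ptpr family (top row) and of 6 lists of partner or related genes, with list medians as black bars and the median of all measured genes as a dotted line. The family median of -0.41, which is the floor-set bound of Ptpn13, lies on the line for all genes at -0.42. The Janus kinase and STAT median lies at 0.86, and the docking adaptor median lies at -0.82.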

How the data were processed

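The authors deposited 1 linear intensity for each probe set on each array. MAS5, named in the submitters' processing notes, condenses the probes of a set into that signal. Not given in the sources used here are its version, its scaling target, detection calls and a genome build. Mean signals were 305 on the LPS array and 311 on the control array. All 35 members matched a RefSeq gene identifier (GRCm38.p6), with 0 symbols changed. Ptprh, Ptprt, Ptprq and Ptpn7 were not analysed here. A gene was represented by its brightest probe set (mean log2 signal), and genes were counted at 2-fold. Members, lists and alternatives were chosen with earlier results of these data known. By the rule for named genes all measured members are named, and from each partner list up to 4 with the largest ratios either way and the 1 largest opposing the list's median. In simulated arrays (9396 genes, shift -0.4, SD 0.3), 71.0% of genes set 3-fold higher and 91.1% set 3-fold lower passed 2-fold as deposited, as did 2.1% of genes left unchanged. Median centring gave 98.0%, 83.5% and 0.1%. In the real arrays 8.22% of measured genes were higher and 26.2% lower, and the offset was not equal for all genes. The simulated rates are therefore not error rates of these arrays. Alternatives were a lower floor (35th percentile) and a higher one (65th), a pseudocount of 16 in place of the floor, 5 scalings (median centring, quantile normalization, loess with span 0.4, poly-A controls and hybridization controls), other choices of probe set, genes that reached both floors, thresholds of 3-fold and 1.5-fold, and Ptprcap left out. Python 3.11.15, pandas 2.3.3 and statsmodels 0.14.6 were used.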

Additional observations from a re-analysis of the deposited data

How the results depend on the processing

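With 1 array per condition no replicate could be left out. No paired analysis was possible because each condition has 1 array and no test. The median of the measured members, -0.41 as deposited, had no settled direction: it was 0.20 with the higher floor (65th percentile), 0.014 with median centring and 0.0039 with quantile normalization, and stayed negative at -0.018 with loess, -0.12 with scaling to the poly-A controls and -0.11 under each of 3 others (the lower floor, plain probe sets alone, and genes that reached both floors). Higher members numbered 3 as deposited, 5 with loess and 0 at 3-fold. Lower members numbered 6 as deposited, and 2 both with median centring and at 3-fold. A stricter size leaves fewer genes by construction, and the cause of the other differences was not tested. Of the 9 members past 2-fold, 3 (Ptprj, Ptpn2 and Ptpn22) passed it under every one of the 11 alternatives that gave them a value, leaving aside the changed thresholds. Ptpn1 was at 0.70 with the median of its probe sets and at 0.19 with plain probe sets alone, and Ptpn4 was at -0.86 with the median of its probe sets. No member past 2-fold changed sign. Leaving out Ptprcap could not change the counts or the median, because it was not among the 25 measured members. Signals within 2-fold of the floors limit 7 of the 25 measured members, whose signals lay under that level on both arrays.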

Other observations

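Growth factor receptor kinases, whose signals many of these phosphatases limit, included higher and lower genes. Of 11 measured, 5 were higher with LPS and 2 lower (5 and 1 after median centring), with a median log2 ratio of 0.30. These are 45.5% and 18.2%, beside 8.22% higher and 26.2% lower over all measured genes (13.1% and 15.3% after centring), so the lower share was under the background as deposited. Insr, the insulin receptor gene and a substrate of PTP1B, had 58.6 on the LPS array and 400.2 on the control array, 6.83-fold lower. Its other measured probe set was at -0.40. That value is near -0.39, the ratio of signals set to both floors, so it may be a bound. Flt1, a receptor for vascular endothelial growth factor, had 200 on the LPS array and 26.9, under the floor, on the control array, at least 5.69-fold higher. Pdgfrb and Met had 170.3 and 150.3 on the LPS array and lay under the floor on the control array, so the folds are at least 4.85 and 4.29.

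Phosphatases of other classes were counted in the same way. Of 13 measured, 2 were higher and 5 lower (2 and 5 after centring), with a median of -0.71. These are 15.4% and 38.5%, beside 8.22% and 26.2% over all measured genes, or 13.1% and 15.3% after centring. Eya1, a phosphatase and transcriptional co-activator, had 19.4 on the LPS array, under the floor, and 517 on the control array, at least 19.4-fold lower, with its 3 probe sets from -4.28 to -1.35. Cdc25b and Cdc25c, which activate cyclin-dependent kinases, were 8.99-fold and at least 4.995-fold lower, while their relative Cdc25a, named after its values were seen, had 146 on the LPS array and 70.2 on the control array, a log2 ratio of 1.06. Ubash3b, which acts on Syk, had 885 on the LPS array and 180 on the control array, 4.90-fold higher, with its 3 probe sets from 1.20 to 2.29.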
